A study of Mus musculus with 2 samples.

Results

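The tissue inhibitors of metalloproteinases are 4 secreted proteins, encoded in the mouse by Timp1, Timp2, Timp3 and Timp4. All 4 were chosen by gene symbol among the 27998 genes of the deposited tables. They were followed through the cell classes of the stromal vascular fraction, the mixture of non-adipocyte cells freed from fat by collagenase. The fraction came from the epididymal white adipose tissue of male C57BL/6J wild type mice aged 18 weeks. One library came from mice on a normal chow diet (NCD) and 1 from mice on a high fat diet (HFD) for 12 weeks. Both were made with droplet 3' single-cell chemistry. No replicate library was available, so diet and library cannot be told apart, and no test between diets was possible. Whether cells of several mice were pooled was not stated. All intervals are 95% intervals that cover counting error only.

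TIMP proteins bind the active site of matrix metalloproteinases (MMPs), the zinc enzymes that cut collagen and other matrix proteins, and block it. TIMP1 is the inducible member, known to respond to cytokines of the interleukin 6 family. TIMP2 also takes part in the activation of pro-MMP2 by MMP14 at the cell surface. TIMP3 is held in the extracellular matrix and also inhibits the sheddase ADAM17, and TIMP4 is the member with the most restricted tissue distribution. In obesity, adipose tissue expands and its matrix is remodelled, and progenitors (fibroblast-like cells that can become adipocytes) make much of that matrix.

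Of the 4 genes, 3 lie inside synapsin genes on the opposite strand. Timp1 (ENSMUSG00000001131) is on chromosome X from 20870166 to 20874735 on the plus strand, within an intron of Syn1. Timp3 (ENSMUSG00000020044) is on chromosome 10 from 86300372 to 86349506 on the plus strand, within Syn3. Timp4 (ENSMUSG00000030317) is on chromosome 6 from 115241892 to 115252205 on the minus strand, within Syn2. Timp2 (ENSMUSG00000017466) is on chromosome 11 from 118301069 to 118355740 on the minus strand, and Cep295nl lies within it on the same strand. These positions are in build GRCm38. Annotated exons of Syn2 and Syn3 overlap exons of Timp4 and Timp3, while those of Syn1 and Cep295nl overlap none of Timp1 and Timp2. The host genes were rarely counted: Syn1 had 78 UMIs (unique molecular identifiers, each 1 captured transcript) on NCD and 26 on HFD. Syn2 had 15 and 16, and Syn3 had 136 and 22.

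The promoters of Timp1 and Timp3 are shown because these genes differed in opposite directions between the progenitors of the 2 libraries. Each is the 250 bases before the RefSeq transcript start, 5′ to 3′ on the strand of the gene, in build GRCm38.p6. Capitals mark the Sp1 box GGGCGG on either strand, which reads CCGCCC on the printed strand in both. The Timp1 stretch is chrX:20869916-20870165 and the Timp3 stretch is chr10:86300162-86300411, both on the plus strand.
Timp1: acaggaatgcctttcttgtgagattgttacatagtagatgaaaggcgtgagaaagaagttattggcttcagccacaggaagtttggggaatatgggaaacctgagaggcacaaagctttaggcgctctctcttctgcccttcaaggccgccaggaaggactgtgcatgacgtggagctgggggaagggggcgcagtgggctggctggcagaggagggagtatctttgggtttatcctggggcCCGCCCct
Timp3: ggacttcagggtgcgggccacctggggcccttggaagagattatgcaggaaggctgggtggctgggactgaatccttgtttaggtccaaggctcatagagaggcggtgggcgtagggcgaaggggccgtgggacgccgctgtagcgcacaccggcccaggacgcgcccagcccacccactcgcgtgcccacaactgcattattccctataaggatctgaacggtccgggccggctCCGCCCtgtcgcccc
The box starts at base -8 of Timp1, -37 of Timp2 and -15 and 14 of Timp3, counted from the transcript start, and Timp4 held none. Of all 32851 RefSeq promoters over the same window (250 bases before the start and 50 after it), 35.7% held it. The AP-1 motif TGANTCA, the STAT motif TTCNNNGAA and the TATA box TATAAA were searched on both strands and matched none of the 4 windows, against 7.81%, 8.30% and 13.6% of all promoters. The AP-1 variant TGAGTAA, in capitals in the next stretch, matched Timp1 alone of the 4, at base 27 after the start (chrX:20870183-20870212, plus strand), and 2.68% of all promoters.
Timp1 start region: gtgggtggaTGAGTAAtgcgtccaggaagc
A match describes the letters of these windows only, and no binding was measured.

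The NCD table held 7365 barcodes with a median of 4230 UMIs, and the HFD table held 6840 with a median of 2020. After filtering, 7161 NCD and 6447 HFD cells were kept, and 64 barcode sequences occurred in both libraries. Levels are given as CPM, the UMIs of a gene per 1000000 UMIs of the summed cells, and need no scaling to length because 1 end of each transcript is counted. Free RNA in the droplets was gauged by the level of markers of another class, which differed between the libraries. Macrophage markers reached 2.93% of their library level in NCD progenitors and 26.2% in HFD progenitors, and progenitor markers reached 4.43% and 28.4% in macrophages. In endothelial cells the shares were 9.08% and 66.8%. Each share is the median ratio of such marker levels, not a fraction of the profile, and reached 119% in HFD mast cells or basophils. Doublets, or a class's own expression of these markers, would raise this share too and were not separated from free RNA. The level that this share of the library profile alone would give is printed beside many of the results it touches. A level whose interval reaches it is read as background.

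Over all kept cells, Timp1 had a level of 45.7 CPM on NCD and of 395 CPM on HFD, 8.63-fold higher (8.16 to 9.14). Timp2 was the most abundant member in both, at 1345 and 1080 CPM. Timp3 was at 280 and 78.7 CPM, 3.55-fold lower in HFD (3.36 to 3.76), and Timp4 at 58.8 and 9.88 CPM, 5.95-fold lower (5.10 to 6.99). The order of the members was Timp2, Timp3, Timp4, Timp1 on NCD and Timp2, Timp1, Timp3, Timp4 on HFD, and no intervals of neighbours overlapped. In bulk RNA of such samples, fewer cells of a type and less RNA per cell could not be told apart, so the classes were measured separately.

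**Figure D1:**
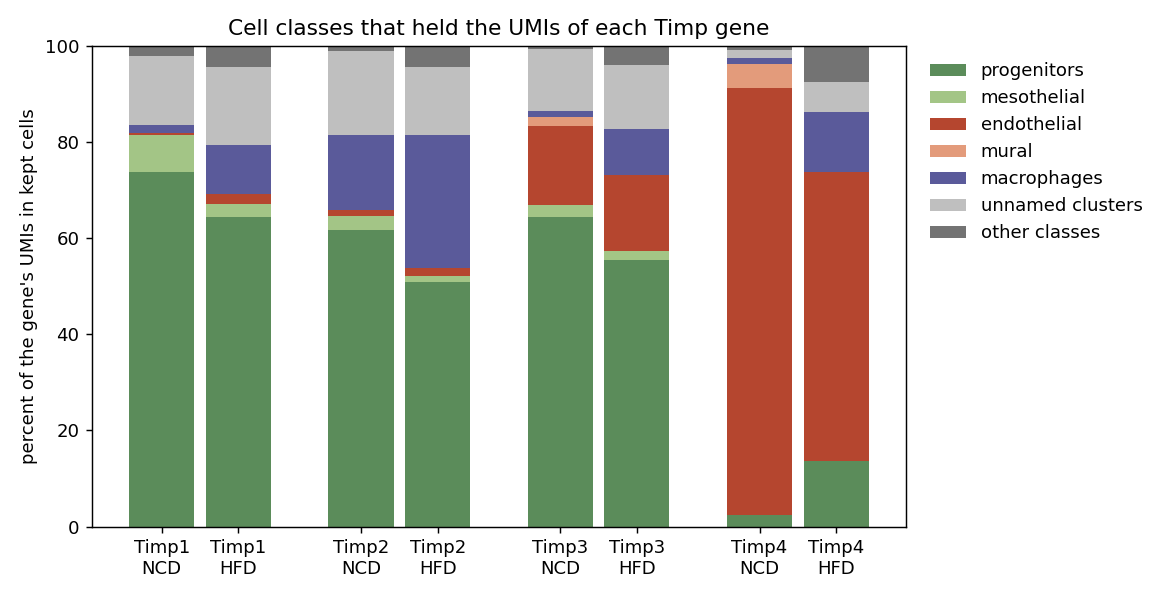
Percent of the UMIs of each Timp gene (vertical axis) held by each cell class in the NCD and HFD libraries (horizontal axis), over all kept cells. Progenitors held the largest part of Timp1, Timp2 and Timp3, from 51.0% to 73.7%, and endothelial cells the largest part of Timp4, 88.8% and 60.0%.

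Progenitors, the class named by Pdgfra, Dcn, Lum, Col1a1 and 8 other markers, held 2593 NCD and 2562 HFD cells and were the main source of 3 members. Of all Timp1 UMIs, 73.7% on NCD and 64.4% on HFD lay in progenitors. For Timp2 the shares were 61.7% and 51.0%, and for Timp3 64.5% and 55.4%, while progenitors made up 36.2% and 39.7% of the kept cells. A further 6 clusters with the highest score for progenitor markers were left unnamed by the naming rule, and counting them in, a grouping chosen after seeing the data, raised the shares to 84.7% and 79.1% for Timp1, 73.2% and 62.4% for Timp2 and 76.9% and 67.5% for Timp3. With each cell classed by its own markers instead of its cluster, progenitors held 38.1% of the NCD Timp1 UMIs. Cells scored as mural then held 22.2%, or 329 UMIs, of which 282 lay in 5 cells of the progenitor clusters. The mural class named by cluster held 1 Timp1 UMI in 33 NCD cells.

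Timp2 was spread over macrophages as well. They held 15.5% of its UMIs on NCD and 27.8% on HFD, and made up 24.5% and 31.6% of the kept cells. Timp3 had endothelial cells as its next source, with 15.7% of its UMIs in each library from 4.96% and 3.18% of the cells. Timp4 differed from the other 3. Endothelial cells held 1696 of its 1909 NCD UMIs, 88.8% (87.3% to 90.2%), and 105 of its 175 HFD UMIs, 60.0% (52.3% to 67.3%). Mural cells, the pericytes and smooth muscle of vessels, held a further 4.92% of the NCD Timp4 UMIs in 33 cells. With each cell classed by its own markers, endothelial cells held 76.2% of the Timp4 UMIs on NCD and 56.6% on HFD. On NCD, cells scored as mural then held 9.32% and cells scored as adipocytes 7.18%.

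**Figure D2:**
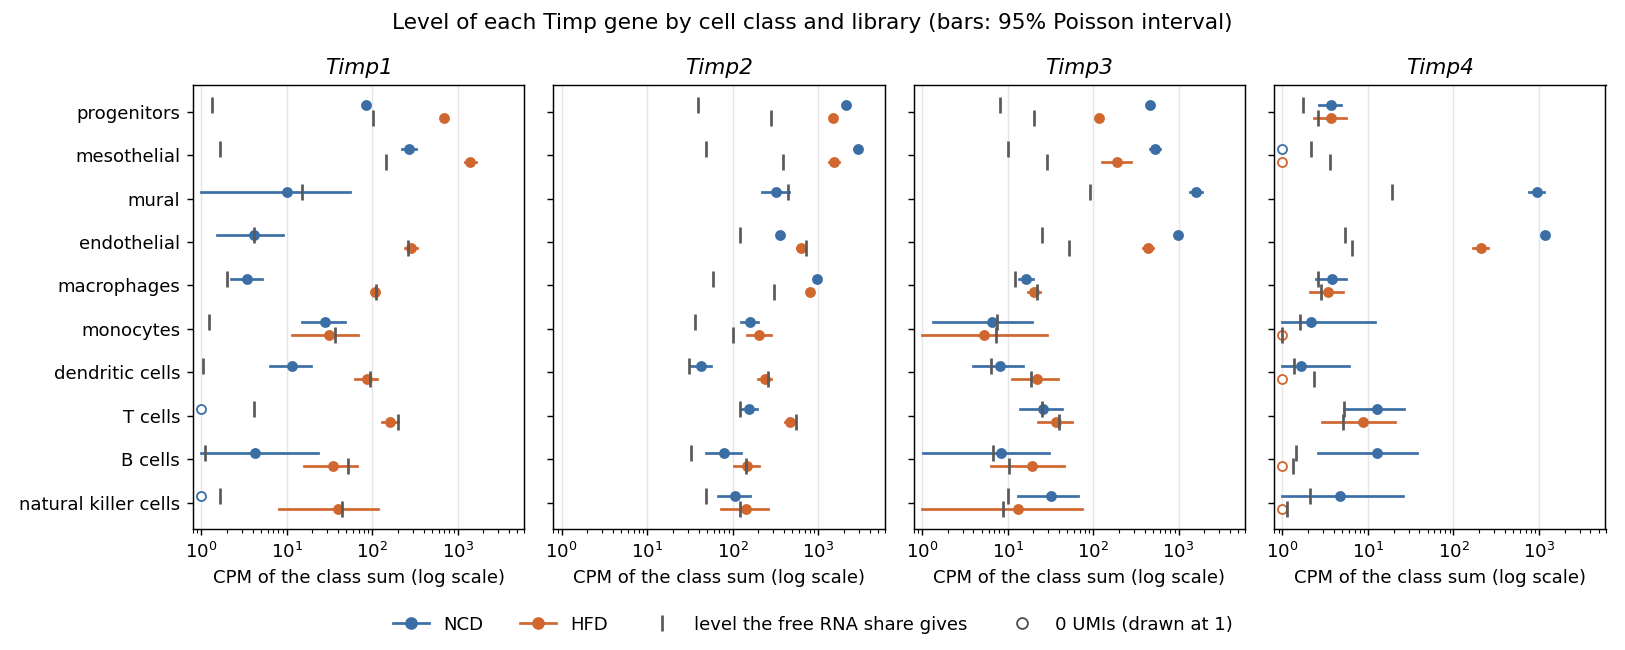
Level of each Timp gene (CPM on a log scale) in 10 cell classes of the NCD and HFD libraries, with 95% Poisson intervals, where a class had at least 20 cells in that library. Grey ticks give the level that free RNA alone would give. Timp1 in HFD immune and endothelial cells lies near its tick, and Timp4 lies far above its tick in endothelial and mural cells.

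In progenitors, Timp1 was at 85.8 CPM on NCD (1094 UMIs, 80.8 to 91.0) and 693 CPM on HFD (4503 UMIs, 673 to 713). It was 8.08-fold higher in HFD (7.56 to 8.63), a log2 ratio of 3.01, which was 3.93 with each cell classed by its own markers. The level that free RNA would give was 1.34 CPM in NCD and 103 CPM in HFD. Timp2 was at 2113 and 1502 CPM, 1.41-fold lower in HFD (1.38 to 1.44), beside 39.4 and 283 CPM from free RNA. Timp3 was at 459 CPM (5850 UMIs, 447 to 471) and 119 CPM (773 UMIs, 111 to 128), 3.86-fold lower (3.58 to 4.16). Its log2 ratio was -1.95, and -1.29 over the clusters with at most 25% free RNA. Free RNA would give 8.19 and 20.6 CPM of Timp3. Timp4 had 47 and 24 UMIs in all progenitors, 3.69 CPM in each library, beside 1.72 and 2.59 CPM from free RNA. The interval of its ratio ran from -0.77 to 0.74 on the log2 scale.

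Among the UMIs of the 4 members in progenitors, Timp1 made up 3.22% on NCD and 29.9% on HFD. Timp2 made up 79.4% and 64.8%, and Timp3 17.2% and 5.13%. Among the 8109 genes with at least 10 CPM in progenitors of either library, 5.39% were at least 2-fold higher in HFD and 4.88% at least 2-fold lower, with a median log2 ratio of -0.21. Of the 3 members that reached that level, Timp1 was past 2-fold higher and Timp3 past 2-fold lower. The 12 progenitor markers had a median log2 ratio of 0.00, from -0.85 to 1.5.

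Timp1 also differed in how many cells held it. With every cell thinned to 1400 UMIs, 5.86% of NCD and 42.9% of HFD progenitors held a Timp1 UMI (unthinned, 15% and 55.6%). In T cells, taken here as the measure of background, the thinned shares were 0% (0 of 122 cells, interval up to 2.98%) and 21.8%. Median depths of the T cells were 3086.5 and 1946 UMIs, beside 4805 and 1980 in progenitors. Progenitor markers reached 8.97% and 51.4% of their library level in T cells, against 2.93% and 26.2% for macrophage markers in progenitors. The thinned share for Timp3 was 41.6% and 12.0% in progenitors, and 3.28% and 5.02% in T cells. Timp2 was found in 90.4% and 83.1% of thinned progenitors and in 18.0% and 43.9% of T cells. The T cell class was mixed, so this background varied by cluster. On NCD, 39 of its cells were in cluster 3.3, whose leading genes included Lyz1 and Ccl17. That cluster held 40 of the 85 Timp2 UMIs. On HFD, 156 of its 239 cells were in cluster 11.2, with a progenitor marker share of 81.0% and Timp1 at 257 CPM. In HFD cluster 11.1 these were 10.2% and 29.3 CPM.

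In the NCD library a few cells of the progenitor clusters carried most of the Timp1. Only 17 of 2593 held 5 or more UMIs, and those 17 held 616 of the 1094 UMIs, with 191 in the highest cell. Their median depth was 8625 UMIs, against 4805 for the class. Scored by their own markers, 6 of the 17 were progenitors (49 Timp1 UMIs), 5 were highest for mural markers (282) and 2 for neutrophil markers (204). In the HFD library 240 of 2562 held 5 or more, with 2501 of the 4503 UMIs and 49 in the highest cell, and 159 of the 240 scored as progenitors (1597 UMIs). Median depth of these 240 was 2703 UMIs, against 1980 for the class. The remaining progenitors, with fewer than 5 UMIs each, were at 38.0 and 356 CPM. As depth differed, 5 UMIs is a higher CPM in an HFD cell than in an NCD cell, so these 2 values were cut at unlike levels. When each cell had the same weight, the log2 ratio of Timp1 was 3.64, against 3.01 for the summed cells.

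The progenitors of the 2 libraries mostly fell into different clusters. In the NCD library clusters 8.2 (669 cells, led by Inmt), 13.1 (548, led by Pi16), 16.0 (496, led by Cilp), 8.1 (370, led by Hsd11b1) and a cluster led by Smpd3 (362) held most of the class. In the HFD library clusters 5.0 (1833 cells, led by Mmp3), 9.0 (386, led by Aebp1) and 5.3 (204 cells) did. The 4 members had been left out of the genes used to cluster. Timp1 was at 20.4 CPM in NCD cluster 8.1, the lowest, and at 162.6 CPM in cluster 16.0, where 1 cell held 191 of the 385 UMIs. Among named HFD clusters it ran from 396 CPM in cluster 16.0 to 1317 CPM in cluster 5.3, with 693 CPM in cluster 5.0. Among these named clusters, 5.3 was the lowest for Timp3, at 43.5 CPM (26.6 to 67.2), with 23.8 CPM from free RNA. That interval overlapped the one of the unnamed cluster 5.2 (48.6 to 105.7). Timp2 in cluster 5.3, at 1189 CPM (1091 to 1293), was not separated from the 1268 CPM of cluster 5.0 (1233 to 1305).

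Cluster 9.0 stood apart on NCD. Its 33 NCD cells were at 1854 CPM of Timp1, against 549 CPM in its 386 HFD cells, and 6 of the 33 held 348 of their 356 UMIs. Without cluster 9.0 the log2 ratio of Timp1 in progenitors was 3.65.

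Cluster 13.1 held 548 NCD and 60 HFD cells, of like depth (medians of 5022 and 4975.5 UMIs) and low free RNA (2.55% and 4.49%). It was led by Pi16 and Sema3c, which mark the Dpp4 Pi16 progenitors known as an early, multipotent population. Timp1 was at 52.9 CPM in its NCD cells and 639 CPM in its HFD cells, 12.1-fold higher, where free RNA would give 17.7 CPM in HFD. The interval of the Timp1 log2 ratio ran from 3.28 to 3.91. Cells with 5 or more Timp1 UMIs were 12 of the 60 HFD cells, with 156 of their 202 UMIs. On NCD they were 4 of the 548, with 36 of 147. Timp2 was at 3412 and 3691 CPM, 1.08-fold higher in HFD. Timp3 was at 527 and 472 CPM, and the interval of the log2 ratio, -0.41 to 0.08, held 0. Most HFD cells with these leading genes lay elsewhere, in the unnamed cluster 22.0 (332 HFD and 3 NCD cells, led by Pi16, with 24.4% free RNA). There Timp1 was at 753 CPM, Timp2 at 2171 CPM and Timp3 at 169 CPM, the last 2 below the NCD level of cluster 13.1.

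The other progenitor-scored clusters with at least 20 cells in both libraries were 16.0, 8.0 and 9.0. Timp1 was 2.44-fold higher in the HFD cells of 16.0, 2.15-fold higher in those of 8.0 (57.7 and 124 CPM, from 10 HFD UMIs) and 3.38-fold lower in those of 9.0. In cluster 16.0 Timp3 was at 253 and 109 CPM (11 HFD UMIs, 2.32-fold lower), and in the unnamed cluster 8.0 at 402 and 261 CPM. In cluster 9.0 it was at 167 and 138 CPM, and the interval of the log2 ratio, -0.81 to 0.31, held 0. Timp2 was no lower in the HFD cells of any of the 4 progenitor-scored clusters with at least 20 cells in both libraries, with log2 ratios of 0.11 in 13.1, 0.20 in 16.0, 0.30 in 8.0 and 0.39 in 9.0. These stand beside -0.49 for the whole class. Among the NCD clusters with at least 50 cells, Timp2 was highest in 13.1 and 13.2, at 3412 and 3352 CPM, and lowest in 8.1, at 1483 CPM.

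**Figure D3:**
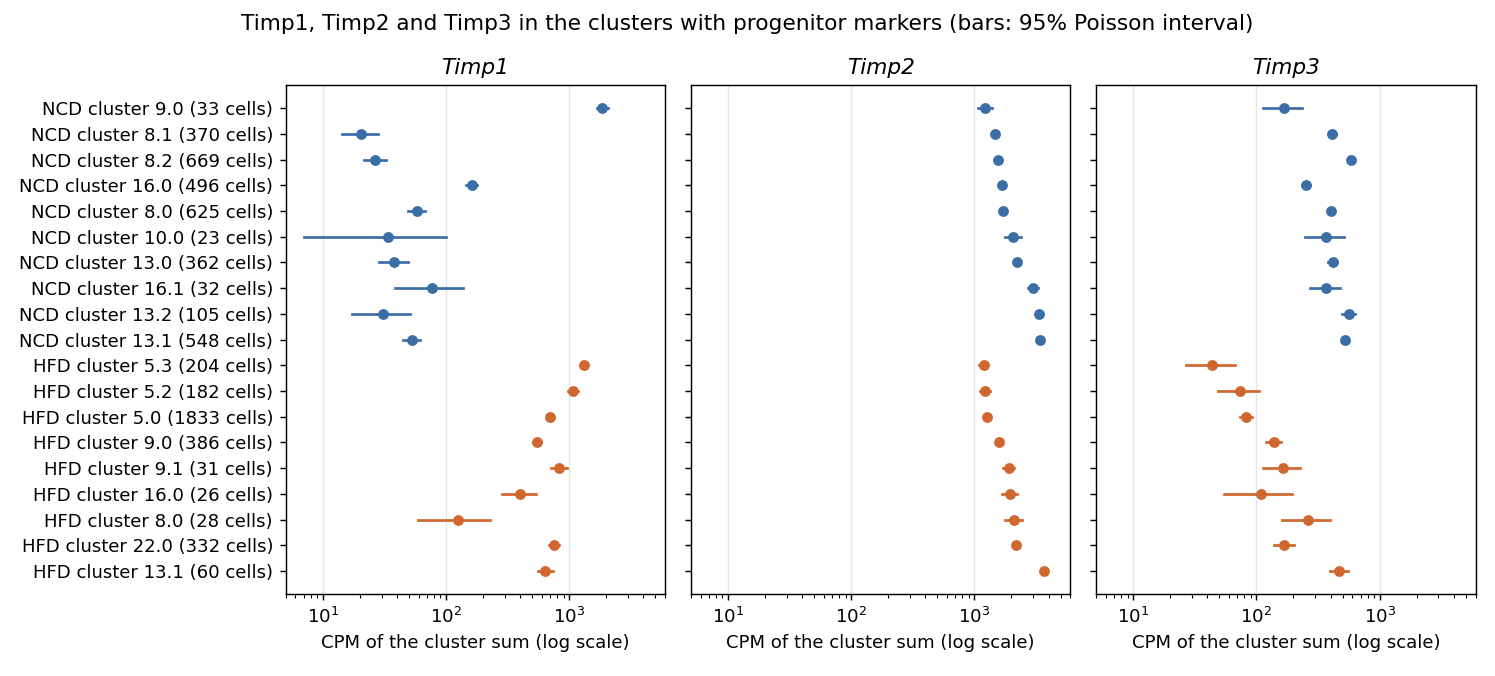
CPM of Timp1, Timp2 and Timp3 (log scale) in each cluster whose highest marker score was for progenitors and that had at least 20 cells in the library, unnamed clusters included, with 95% Poisson intervals. Except for NCD cluster 9.0 (1854 CPM), NCD clusters sit at or below 162.6 CPM of Timp1, and HFD clusters reach 1317 CPM.

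The mesothelial class, named for the cells that line the organs and the fat pad, had Timp1 above the progenitor level in both libraries. Timp1 was at 270 CPM (222 to 324) in 58 NCD cells and 1410 CPM (1220 to 1622) in 53 HFD cells, 5.23-fold higher. Of the 114 NCD UMIs, 79 lay in 2 cells. Timp2 was at 2907 and 1532 CPM and Timp3 at 530 and 193 CPM, 1.90-fold and 2.74-fold lower in HFD. In the HFD cells free RNA would give 144 CPM of Timp1, 393 CPM of Timp2 and 28.7 CPM of Timp3. In the NCD cells these levels were 1.67, 49.1 and 10.2 CPM. Timp4 had 0 UMIs in both. These cells were mainly cluster 0.0 on NCD, and 51 of the 53 HFD cells were cluster 0.1, led by Crisp1, a secreted protein of the epididymis. All 10 mesothelial markers were detected in both, at 8047 and 3265 CPM in sum, 2.46-fold lower in HFD. The 8 epididymal epithelium markers were at 348 and 2921 CPM in sum, with 4 at 0 on NCD and 2 at 0 on HFD. Of these, Spink8 was at 0 and 1725 CPM and Defb42 at 0 and 959 CPM. By their own markers, 57 NCD cells scored as mesothelial, with Timp1 at 273 CPM, as did 48 HFD cells, with Timp1 at 1615 CPM. In 3 HFD cells scored as epididymal epithelium Timp1 was at 219.5 CPM, from 4 UMIs. The part of the epididymal RNA in the other differences was not tested.

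Timp4 was high in the cells of blood vessels. In endothelial cells it was at 1171 CPM (1696 UMIs in 355 cells, 1116 to 1228) on NCD and 209 CPM (105 UMIs in 205 cells, 171 to 253) on HFD, 5.61-fold lower (4.61 to 6.90). Free RNA would give 5.34 and 6.59 CPM. Among 8579 genes with at least 10 CPM in endothelial cells, 11.3% were at least 2-fold lower in HFD and 8.67% at least 2-fold higher, and Timp3 and Timp4 were both among the lower. Timp3 was at 981 CPM (931 to 1033) and 435 CPM (379 to 497), 2.25-fold lower (1.95 to 2.61). In thinned cells, Timp4 was found in 71.0% of NCD and 19.0% of HFD endothelial cells and Timp3 in 71.8% and 37.1%.

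Progenitor markers reached 66.8% of their library level in HFD endothelial cells. The 11 endothelial markers were also 1.75-fold lower in sum, 9 of 11 being lower. After the library profile was subtracted, the log2 ratio of Timp4 was -1.23 in place of -2.49, and that of Timp3 was -0.024 in place of -1.17. The difference in Timp3 was thus gone after subtraction, and that in Timp4 was smaller. In cluster 12.0, where free RNA was 5.99% and 15.5%, Timp4 was at 1494 and 523 CPM, 2.86-fold lower, and Timp3 at 1191 and 744 CPM, 1.60-fold lower, from 48 HFD cells. Haemoglobin transcripts led this cluster.

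Among vessel cells the members differed by type. In the NCD library, 33 mural cells had Timp3 at 1608 CPM (1370 to 1877) and Timp4 at 939 CPM (759 to 1149), an interval that overlapped that of endothelial cells. After the free RNA was subtracted and the rest rescaled, Timp4 was at 1320 CPM in mural and 1280 CPM in endothelial cells. The 10 lymphatic endothelial cells had Timp3 at 1925 CPM (1516 to 2409) and 0 Timp4 UMIs, a count that allows up to 76.0 CPM. On NCD, Timp4 was lower in endothelial cluster 12.1 (496 CPM, 66 NCD cells) than in cluster 12.0. Timp1 had 6 UMIs in NCD endothelial cells, 4.14 CPM, and 288 CPM (243 to 339) in HFD ones, where free RNA would give 264 CPM. Timp2 was at 361 CPM in NCD endothelial cells, with 122 CPM from free RNA, and at 638 CPM in HFD ones, below the 721 CPM that free RNA would give. Outside vessel cells, Timp4 lay above its HFD free RNA level in plasma cells, with 8 UMIs in 90 cells (28.4 CPM, 12.3 to 56.0, beside 6.16 CPM). Progenitor markers reached 62.3% of their library level there. The 90 cells were all of 1 cluster, led by Jchain and Mzb1, whose 20 NCD cells held 0 Timp4 UMIs.

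Timp2 was the member far above background in macrophages. It was at 981 CPM (958 to 1005) in 1752 NCD cells and 813 CPM (791 to 835) in 2035 HFD cells, 1.21-fold lower, beside free RNA levels of 59.6 and 307 CPM. The 12 macrophage markers were 1.36-fold lower in sum, 9 of 12 being lower. Timp1 was at 3.48 and 109 CPM, and its HFD value lay at the 112 CPM that free RNA would give. The 31.2-fold ratio of the counts is therefore not read as expression. In the NCD monocytes Timp1 had 13 UMIs, 28.4 CPM (15.1 to 48.5), beside 1.23 CPM from free RNA. In macrophages Timp3 (16.4 and 20.5 CPM) and Timp4 (3.77 and 3.37 CPM) were near their free RNA levels of 12.4 and 22.4 CPM and 2.61 and 2.81 CPM. Of these low values, the intervals of Timp1 (2.23 to 5.18) and Timp3 (13.5 to 19.7) in NCD macrophages lay just above the free RNA level, at 2.03 CPM for Timp1. Among 7463 genes with at least 10 CPM in macrophages, 9.02% were at least 2-fold higher in HFD and 10.3% at least 2-fold lower. Of the 3 members with at least 10 CPM, 1 was past 2-fold, the Timp1 background.

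The Timp2 level ranged widely over macrophage clusters. The Lyve1 and Cd209f cluster 1.0, with genes known from resident perivascular macrophages, was at 1309 CPM in 813 NCD cells and 1647 CPM in 27 HFD cells. Clusters 2.0 to 2.3, led by Ccl12 or Mgl2, were at 690 to 930 CPM on NCD. Clusters 6.0 and 6.1, led by Mmp12 with Trem2 and Gpnmb, genes of lipid-associated macrophages, were both at 805 CPM on HFD, with 201 and 440 CPM from free RNA. Cluster 7.1, at low free RNA (72.5 CPM), was at 806 CPM. Lower levels were found in cluster 7.0, led by Cxcl13, at 354 CPM on NCD and 347 CPM on HFD, and in cluster 14.0, led by the cell division genes Ube2c and Birc5, at 329 CPM on NCD. Cluster 14.2, also led by Ube2c and Birc5, was at 643 CPM (587 to 702) in 212 HFD cells, with 418 CPM from free RNA. Monocytes were at 159 and 205 CPM of Timp2, and dendritic cells at 42.2 and 239 CPM, the latter below its free RNA level of 257 CPM.

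The targets of the inhibitors were counted in the same cells. Of 21 matrix metalloproteinase genes, 7 had at least 10 CPM in progenitors, 3 were at least 2-fold higher in HFD and 0 were lower, beside 5.39% and 4.88% of all genes. Their median log2 ratio was 0.93, beside -0.21 for all genes. Mmp3, a stromelysin, was at 16.3 CPM on NCD and 295 CPM on HFD, 18.1-fold higher, and Mmp11 at 31.8 and 82.5 CPM. The third, Mmp12, was at 94.9 CPM in HFD progenitors, under the 105 CPM that free RNA would give. Mmp2, gelatinase A, was at 249 and 474 CPM, and Mmp14, its membrane-bound activator, at 96.0 and 156 CPM, 1.90-fold and 1.62-fold higher.

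In macrophages, Mmp12, the macrophage elastase, was at 16.8 CPM on NCD and 938 CPM on HFD, 55.8-fold higher and far above the 114 CPM from free RNA. Mmp9, gelatinase B, was at 123 CPM on NCD and 1.68 CPM on HFD. Of 8 matrix metalloproteinase genes with at least 10 CPM there, 7 were past 2-fold higher, beside 9.02% of all genes. Of these 7, Mmp12 and Mmp19 (17.0 and 46.5 CPM, with 14.9 CPM from free RNA) stood above the HFD free RNA level. The other 5 were at or near it: Mmp2 at 73.2 CPM beside 69.5 CPM, Mmp23 at 43.6 beside 42.4, Mmp3 at 35.8 beside 41.0, Mmp14 at 19.9 beside 21.8 and Mmp11 at 11.8 beside 11.6.

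Of the ADAM sheddases, which release membrane proteins and of which TIMP3 inhibits several, 8 of 9 had at least 10 CPM in progenitors, with 1 higher and 1 lower, beside 5.39% and 4.88% of all genes, shares that also stand beside the counts of the lists that follow. The 1 higher was Adam8, at 16.0 CPM in HFD under a free RNA level of 17.1 CPM. Adam17 was at 32.2 and 28.2 CPM, and the interval of its log2 ratio, -0.45 to 0.06, held 0. Adam8 in macrophages was at 12.2 and 143 CPM, 11.8-fold higher. Of the ADAMTS proteinases, which cut aggrecan, versican and procollagen, 7 of 19 had at least 10 CPM in progenitors, with 0 higher and 2 lower. Adamts5, an aggrecanase that TIMP3 inhibits, was at 556 and 234 CPM, 2.38-fold lower. In endothelial cells Adamts1 was at 296 and 107 CPM.

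Other proteinase inhibitors were measured for comparison, in a list that also held Pcolce, which is an enhancer and not an inhibitor. Of 16 genes, 11 had at least 10 CPM in progenitors. Of these, 3 were past 2-fold higher (Serpina3n, Pcolce and Slpi) and 1 past 2-fold lower. Serpina3n, a serine proteinase inhibitor, was at 35.3 and 99.1 CPM and Pcolce, the procollagen C-proteinase enhancer, at 537 and 1124 CPM. Reck, a membrane-anchored MMP inhibitor, was at 40.8 and 21.1 CPM, 1.93-fold lower. The largest ratio in this list was the 2.98-fold of Slpi, at 18.0 CPM in HFD under a free RNA level of 22.2 CPM, beside 8.08-fold for Timp1.

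**Figure D4:**
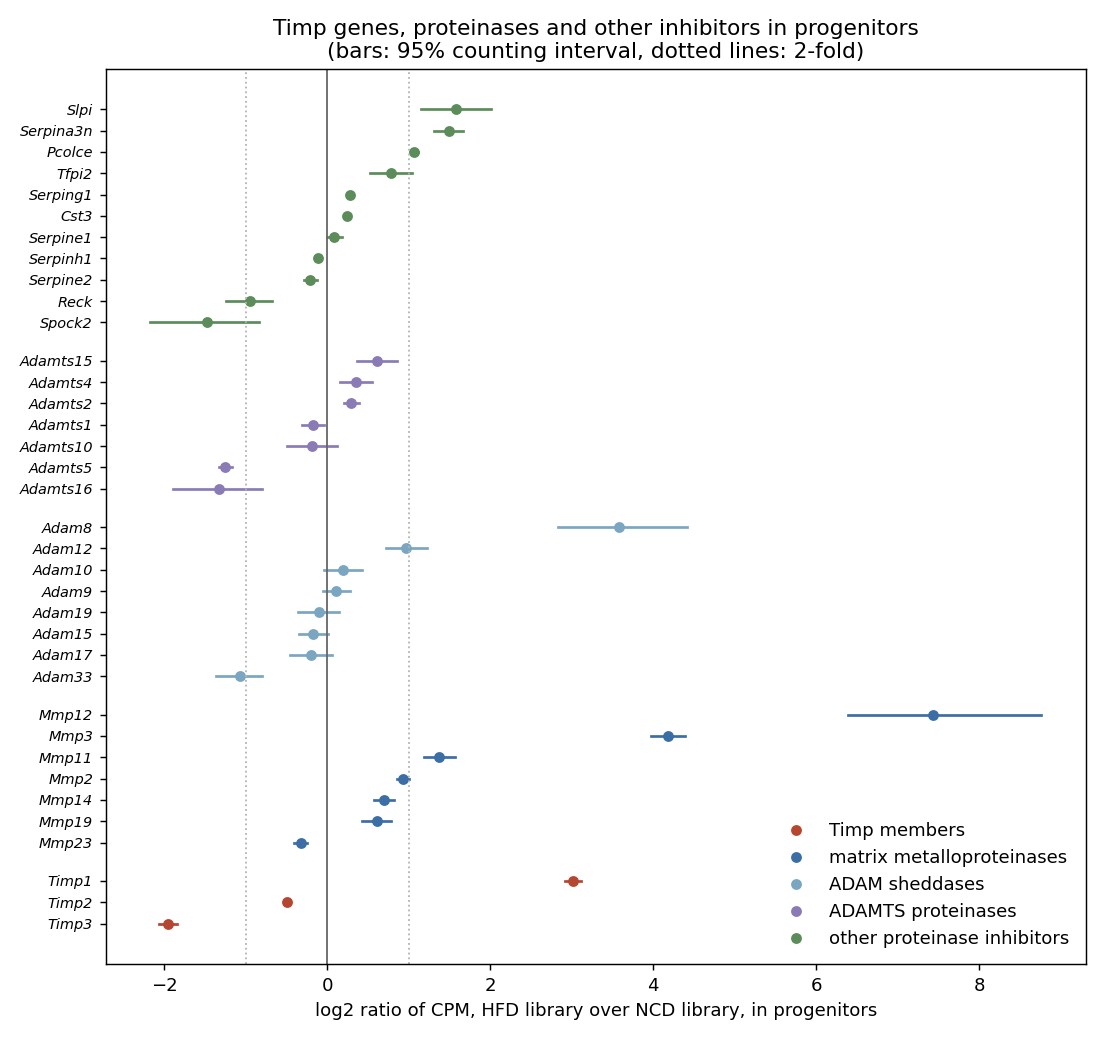
Log2 ratio of CPM, HFD over NCD library, in progenitors for the Timp genes, proteinases and other proteinase inhibitors with at least 10 CPM in either library, with 95% counting intervals. The last list includes Pcolce, an enhancer. Timp1 (3.01) and Mmp3 (4.18) lie far to the right and Timp3 (-1.95) lies lowest, while Mmp12 and Adam8 are at background level in these cells.

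The surface partners of the inhibitors were present in the same tissue. Cd63, a tetraspanin that binds TIMP1, was at 1725 and 2211 CPM in progenitors and at 831 and 2128 CPM in macrophages, 2.56-fold higher in the latter with 538 CPM from free RNA. Lrp1, the endocytic receptor that clears TIMP and MMP complexes, was at 471 and 483 CPM in progenitors, with an interval that held no difference, and at 126 and 214 CPM in macrophages. Kdr, the VEGF receptor that TIMP3 can block, was at 353 and 175 CPM in endothelial cells, 2.02-fold lower, and it is also 1 of the 11 endothelial markers. Efemp1, a matrix protein that binds TIMP3, was at 680 and 373 CPM in progenitors, 1.82-fold lower. Of the 11 partner genes, 7 had at least 10 CPM in progenitors.

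Among 22 genes of the cytokine route known to induce Timp1, 17 had at least 10 CPM in progenitors, with 3 past 2-fold higher and 2 lower. Il6 was at 89.8 and 172 CPM, 1.92-fold higher, and Osmr, the oncostatin M receptor, at 50.5 and 83.5 CPM. Runx1, a transcription factor, was at 11.3 and 37.9 CPM, 3.35-fold higher, and is named here after its value was seen. Il6ra, the interleukin 6 receptor, was at 71.4 and 24.6 CPM, 2.90-fold lower. Stat3, at 82.0 and 99.6 CPM, and its target Socs3, at 389 and 455 CPM, differed by 1.21-fold and 1.17-fold. None of the 3 synapsin genes reached 10 CPM in progenitors or macrophages.

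Across 21 pairs of class and library with at least 50 cells, the 5273 genes with at least 50 CPM in 1 of them were ranked by Pearson correlation of log2(CPM + 10) with each member. The pairs share their libraries and free RNA, so the values only describe the pattern. Pdpn (0.95), Pam, Col6a5, Mgp and C1ra were most like Timp1. Rnase4 (0.96), Ctsf, S100a1, Selm and Rcn3 were most like Timp2. Fermt2 (0.95), Tm4sf1, Sptbn1, Hoxa7 and Wwtr1 were most like Timp3. Myct1 (0.96), Rgs5, Sox7, Etl4 and Sncg were most like Timp4.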

How the data were processed

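Both libraries were read from the UMI counts per gene and barcode that the authors deposited, which hold whole numbers with no normalization. Cell Ranger, Seurat and build mm10 are named per the submitters' processing notes, with versions not given in the sources used here. Barcodes under 500 genes, under 1000 UMIs or over 20% mitochondrial UMIs were left out. Doublets were called per library with Scrublet at 5%. In the HFD library its own threshold called 0, so the 5% with the highest scores (339 barcodes) were removed, against 183 in the NCD library.

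Counts were scaled to 10000 per cell, log transformed and clustered without integration with scanpy 1.11.5 (2000 variable genes without the 4 members, 30 components, 15 neighbours, Leiden resolution 1, clusters split once at 0.3), which gave 58 clusters. A cluster was named from 21 marker lists. In 11 clusters (1574 NCD and 827 HFD cells) another class had more markers among the 10 leading genes, and they stay unnamed. Each of them had at least the 3 markers past 1.5-fold that the naming rule asks for. Depth differed 2-fold between the libraries, so shares of cells were compared after thinning to 1400 UMIs, which left out 0 cells.

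Class sums were given as CPM with exact Poisson intervals, shares with Clopper-Pearson intervals and ratios with exact conditional binomial intervals (scipy 1.17.1). These cover counting error only, and the scripts were tested on simulated data. No p-value was computed with 1 library per diet. A count of 0 is set at 3 UMIs for a limit. A gene was called at 2-fold with at least 10 CPM in either library. From each of 8 lists, up to 5 genes with at least 50 CPM in a class were named, by size of the log2 ratio, along with the 5 genes most like each member; other list genes named (Slpi, Reck, Adam17, Runx1 and the 4 Mmp genes at background in macrophages beside Mmp2, with Mmp19 and, in progenitors, Adam8) were picked after their values were seen. Members and lists were chosen with earlier results of these data known. The count of partner genes past 2-fold and the leading gene of 1 cluster are not reported here.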

Additional observations from a re-analysis of the deposited data

How the results depend on the processing

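No paired analysis was possible because each diet has 1 library, and for the same reason no replicate could be left out. Of 120 alternative values, 46 stayed within the counting interval of the reported value and 74 moved outside it. Many of the 120 are percentages, which cannot fall below 0, so only the log2 ratios could change direction. None of the log2 ratios whose reported interval excluded 0 did so. The log2 ratio of Timp4 in progenitors, whose interval held 0, ran from -0.67 to 0.72 and was below 0 in 4 settings: the strict cell filter, the clusters with little free RNA, the free RNA subtraction and the equal weighting of cells. Apart from the settings whose construction changes the cells or counts, the cause was not tested. With no filter on cells, progenitors held, of the UMIs of each gene, in NCD 59.9% (Timp2) and 62.1% (Timp3). With cells under 1000 genes or over 10% mitochondrial UMIs left out, log2 ratios in progenitors were -0.38 (Timp2) and -1.73 (Timp3), and in endothelial cells -0.86 (Timp3). Their shares of the UMIs of each gene were, in NCD 62.7% (Timp2) and 66.1% (Timp3), and in HFD 66.5% (Timp1), 53.1% (Timp2) and 58.1% (Timp3). With each cell classed by its own markers, log2 ratios in progenitors were 3.93 (Timp1), -0.37 (Timp2) and -1.73 (Timp3). Shares of UMIs from progenitors were, in NCD 38.1% (Timp1), 57.8% (Timp2), 59.8% (Timp3) and 1.73% (Timp4), and in HFD 52% (Timp1), 43.2% (Timp2) and 49.6% (Timp3). With the first round of clusters alone, log2 ratios in progenitors were 3.14 (Timp1) and -0.46 (Timp2). Their shares of the UMIs of each gene were, in NCD 84.5% (Timp1), 72.7% (Timp2) and 76.5% (Timp3), and in HFD 71.5% (Timp1), 54.4% (Timp2) and 59% (Timp3). At resolution 2, log2 ratios in progenitors were -0.39 (Timp2) and -1.71 (Timp3). Shares of UMIs from progenitors were, in NCD 54.5% (Timp2), 52.9% (Timp3) and 1.73% (Timp4), and in HFD 55.6% (Timp1), 44.6% (Timp2) and 49.4% (Timp3). In clusters with at most 25% free RNA, log2 ratios in progenitors were 2.76 (Timp1), -0.12 (Timp2) and -1.29 (Timp3), and in endothelial cells -0.40 (Timp3) and -1.22 (Timp4). Their shares of the UMIs of each gene were, in NCD 76.8% (Timp1), 62.9% (Timp2) and 67.7% (Timp3), and in HFD 62.2% (Timp1), 48.6% (Timp2), 58.4% (Timp3) and 5.43% (Timp4). With unnamed clusters classed by their highest marker score (added after seeing the data), log2 ratios in progenitors were 3.16 (Timp1) and -0.40 (Timp2). Shares of UMIs from progenitors were, in NCD 84.7% (Timp1), 73.2% (Timp2) and 76.9% (Timp3), and in HFD 79.1% (Timp1), 62.4% (Timp2) and 67.5% (Timp3). With free RNA subtracted and the rest rescaled, log2 ratios in progenitors were 3.20 (Timp1), -0.37 (Timp2) and -1.80 (Timp3). In endothelial cells they were -0.024 (Timp3) and -1.23 (Timp4). Shares of UMIs from progenitors were, in NCD 63.2% (Timp2), 66.1% (Timp3) and 1.37% (Timp4), and in HFD 77.5% (Timp1), 58.7% (Timp2), 64.9% (Timp3) and 6.25% (Timp4). With each cell weighted equally, log2 ratios in progenitors were 3.64 (Timp1), -0.62 (Timp2) and -2.16 (Timp3), and in endothelial cells -2.89 (Timp4). Without cluster 9.0 (also added), log2 ratios in progenitors were 3.65 (Timp1) and -0.53 (Timp2).

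The shallower HFD library, with its larger share of free RNA, limits what can be read at low levels. There, the counting interval of Timp1 reached the free RNA level or lay below it in each named class other than progenitors and mesothelial cells, and that of Timp4 in each named class other than endothelial and plasma cells.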
